A study of Mus musculus with 9 samples.

Results

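The collagen genes were taken as every row of the count table whose symbol reads Col, a number, a and a number. There were 44 such genes among 36410 listed, 11 of them for fibrillar collagens, 6 for the type IV collagens of basement membranes and 27 for other collagens. The RNA came from 3 immortalized striatal lines made from mouse embryos, which the labels give as strain C57/BL6. STHdhQ7/Q7 cells (control) carry a knock-in Htt exon 1 with 7 repeats on both alleles. STHdhQ7/Q111 cells (HD-het) carry 7 repeats on 1 allele and 111 on the other, and STHdhQ111/Q111 cells (HD-homo) carry 111 on both. Htt encodes huntingtin, whose expanded glutamine tract causes Huntington disease (HD). No treatment or time point is given. The labels give all 3 lines a knock-in allele, while the study describes the embryos of the control line as wild type. Each genotype is represented by 1 line with 3 poly(A) RNA-seq libraries, so that the Htt genotype and the line itself cannot be told apart. The labels do not say whether the 3 libraries of a line came from separate cultures, and p-values therefore measure the spread between libraries, which may be technical.

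Collagens are mostly secreted proteins built of 3 chains wound into a triple helix. Some are homotrimers and others need chains from different genes: type I collagen is usually assembled from the Col1a1 and Col1a2 chains, type V mostly from Col5a1 and Col5a2, and type VI from Col6a1, Col6a2 and a further chain such as Col6a3. Fibrillar collagens form the banded fibrils of connective tissue, type IV collagens form the network of basement membranes, type VI forms beaded filaments, and the fibril-associated collagens with interrupted triple helices decorate the surface of fibrils. In the brain, collagens are found mainly in the vascular basement membranes, in the meninges and in the fibroblasts around vessels.

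The 9 libraries held 29507665 to 41197931 counts, at which 3 counts, used here as the detection floor, correspond to 0.0710 to 0.101 CPM (counts scaled to a common library total). CPM were normalized with factors computed by the trimmed mean of M-values (TMM), which lay between 0.984 and 1.03. Htt mRNA was present in all lines, at a mean of 62.3 CPM in HD-het and 20.2 CPM in HD-homo cells, 1.60-fold and 4.95-fold lower than in control. Of the 10 listed markers of striatal projection neurons 5 were tested. Drd1 had no read in any library, Drd2 at most 1 and Ppp1r1b at most 17. Foxp1 stood at means of 93.8, 114 and 168 CPM (in the order control, HD-het, HD-homo). The list summed to 90.2 to 100, 115 to 118 and 162 to 184 CPM, most of it Foxp1. Penk stood at 1.28, 0.47 and 2.42 CPM, Rgs9 at 0.405, 0.0884 and 0.389 and Bcl11b at 0.167, 0.562 and 0.0739. Against control, 2 of the list were higher and none lower in HD-homo cells, and 2 were higher and 2 lower in HD-het cells. Of 8 general neuronal markers, Rbfox3, Snap25, Syt1 and Nefl did not pass the floor in any library, while Tubb3 stood at means of 42.4, 50.8 and 37.8 CPM, Map2 at 62.9, 60.4 and 59.7, Stmn2 at 53.7, 2.71 and 2.75 and Syn1 at 3.97, 4.09 and 1.18, and the list summed to 143 to 175, 114 to 120.0 and 93.0 to 117 CPM. Fibroblast markers summed to 1240 to 1280 CPM in control, 931 to 970 CPM in HD-het and 1670 to 1710 CPM in HD-homo libraries, and smooth muscle and pericyte markers to 2380 to 2790, 7030 to 7730 and 246 to 345 CPM. Members of these lists went different ways. S100a4 stood at means of 823, 313 and 811 CPM, Pdgfrb at 92.7, 362 and 146, Prrx1 at 207, 139 and 240 and Pdgfra at 5.21, 4.38 and 307. In the smooth muscle and pericyte list, Acta2 stood at 2270, 5290 and 91.8 CPM and Tagln at 272, 1790 and 21.6. Cspg4 stood at 76.8, 182 and 159 CPM there and Myh11 at 28.5, 32.5 and 29.9. Neural progenitor markers summed to 661 to 702, 958 to 996 and 27.9 to 40.8 CPM. Astrocyte markers summed to 327 to 375, 213 to 232 and 401 to 460 CPM, of which Gja1 made up means of 356, 219 and 415 CPM. Slc1a3 stood at 2.24, 0.644 and 14.6 CPM, and Gfap, Aqp4, Aldh1l1 and S100b had at most 7 reads in any library. Endothelial and oligodendrocyte markers stayed at or under 1.66 and 2.89 CPM in sum. Microglial markers summed to 12 to 15.6, 42.8 to 52.8 and 13.3 to 14.5 CPM, of which Tmem119 made up means of 13.1, 45.9 and 11.5 CPM, and Aif1 had no read. The part of these differences between the lines in the collagen results was not tested.

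Collagen mRNA was more abundant in both HD lines than in control cells. Collagen reads made up 0.754, 0.734 and 0.585% of all counts in control, 2.06, 1.98 and 1.83% in HD-het and 1.48, 1.40 and 1.47% in HD-homo libraries. The 3 lines did not overlap, and the low control value was that of replicate 3, in which most of the abundant collagens were lower than in the other two control libraries. In a bulk library, fewer expressing cells and less RNA per cell cannot be told apart. Summed over all 44 genes, the level was 6912 ± 937 CPM (mean ± SD, n = 3 libraries) in control, 19780 ± 1160 CPM in HD-het and 14370 ± 594 CPM in HD-homo cells, which is 2.86 times the control level in HD-het and 2.08 times in HD-homo cells.

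The 3 classes did not follow the same order. Fibrillar collagens summed to 4728, 4597 and 3484 CPM in control, 11910, 11140 and 10170 CPM in HD-het and 9664, 9049 and 9367 CPM in HD-homo libraries, so that both HD lines lay above control. Type IV collagens summed to 1186, 1147 and 1036 CPM in control, 2854, 2633 and 2969 CPM in HD-het and 800.8, 620.0 and 788.5 CPM in HD-homo libraries, so that HD-homo cells lay below control and HD-het cells above it, without overlap. The other collagens summed to 1520 ± 177 CPM in control, 5892 ± 381 CPM in HD-het and 4274 ± 302 CPM in HD-homo cells. Type IV collagens thus took 16.4% of the collagen CPM in control, 14.3% in HD-het and 5.11% in HD-homo cells. No test was made of a sum, and with 3 libraries against 3 an exact permutation test could not go below p = 0.10. Counts also grow with transcript length. Per kilobase of the longest coding transcript, the other collagens were higher in HD-homo cells (812.3 CPM per kb) than in HD-het cells (622.3 CPM per kb), the reverse of their order in CPM, while the order of the lines was kept for the fibrillar and type IV sums.

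**Figure D1:**
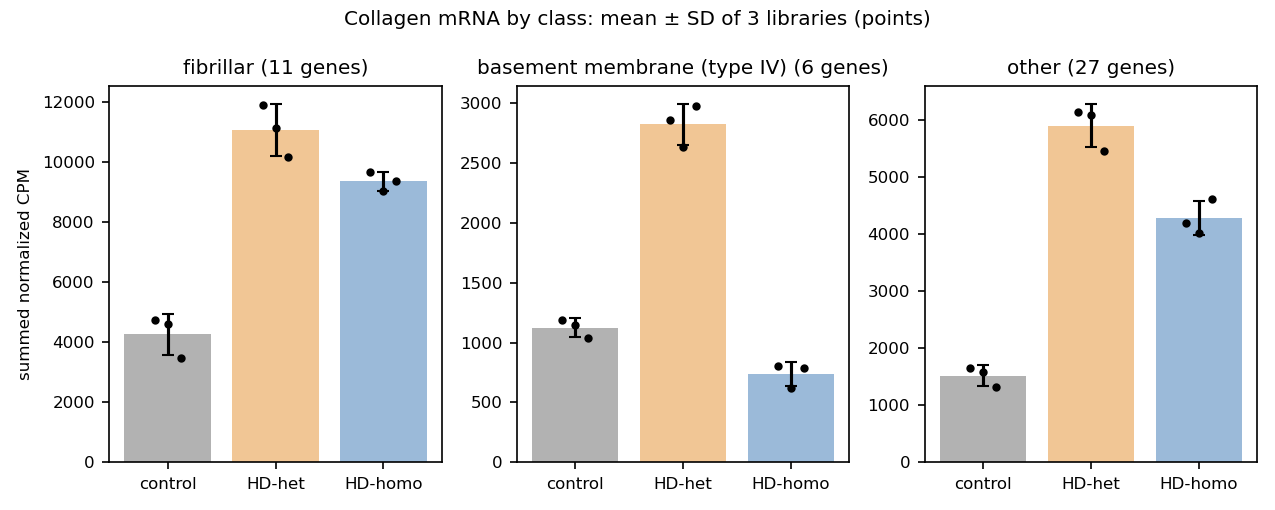
Summed normalized CPM of the fibrillar, type IV and other collagens in the 3 lines; bars show the mean, error bars the SD and points the 3 libraries. The type IV sum is 736.4 ± 101 CPM in HD-homo cells, below the 1123 ± 78.0 CPM of control, whereas the fibrillar and other sums are above control in both HD lines.

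Col1a1 was the most abundant collagen mRNA per kilobase in every line, at 415.6 CPM per kb in control, 1197 in HD-het and 714.1 in HD-homo cells, and did not overlap the gene ranked next. Behind it the order differed. In control cells Col18a1, Col4a1, Col3a1, Col5a2, Col5a1 and Col4a2 followed at levels from 91.4 down to 62.7 CPM per kb, and each of these overlapped its neighbour in the order. In HD-het cells the following genes were Col12a1 (399.6 CPM per kb), Col5a1 (300.5) and Col4a1 (240.6), which did not overlap one another. In HD-homo cells they were Col6a1 (393.7 CPM per kb), Col5a2 (314.9), Col1a2 (279.3) and Col6a2 (247.3), of which Col5a2 overlapped Col1a2 and Col1a2 overlapped Col6a2.

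Of the 44 genes, 33 had enough reads to be tested (10 fibrillar, 6 type IV and 17 other), and 23 reached a mean of 10 CPM in at least 1 line. Each was tested with edgeR's quasi-likelihood test on the counts of all 9 libraries, with Benjamini-Hochberg adjustment over the 13508 genes tested and an adjusted p under 0.05 as the threshold. Values in parentheses are log2 fold changes ± SE from this fit. Most of the tested genes also passed in these comparisons, so the counts are given beside the share of all tested genes that passed.

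In HD-homo against control cells, 27 of the 33 tested collagens passed, 18 higher and 9 lower in HD-homo cells, where 58.6% of all tested genes passed (29.6% higher and 28.9% lower). Of the 27, 20 also differed by at least 1 log2 unit, against 19.1% of all genes, and the libraries of 28 collagens did not overlap between the lines, against 65.3% of all genes. By class, 7 fibrillar collagens were higher and 1 was lower, all 6 type IV collagens were lower, and 11 of the other collagens were higher and 2 lower. The median log2 fold change was 0.71 for the fibrillar, -1.99 for the type IV and 1.81 for the other collagens, beside 0.0077 over all tested genes. With Col10a1 and other genes at the floor in 1 line set to their bound, and Col14a1, at the floor in both lines, left out, the median of the other collagens was 1.66. With at least 10 counts in every library, which removes Col4a3, Col4a4 and other nearly absent genes, the type IV median was -0.59.

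In HD-het against control cells, 24 of the 33 passed, 20 higher and 4 lower in HD-het cells, where 65.1% of all tested genes passed (33.8% higher and 31.4% lower). Of these, 19 also differed by at least 1 log2 unit, against 18.4% of all genes. Libraries did not overlap for 24 collagens, against 74.0% of all genes. There 7 fibrillar collagens were higher and 2 lower, 3 type IV collagens were higher and 1 lower, and 10 of the other collagens were higher and 1 lower. The medians were 1.16 for the fibrillar, 0.22 for the type IV and 1.33 for the other collagens, beside 0.025 over all tested genes. With the genes at the floor set to their bound or, where both lines were at the floor, left out, the median of the other collagens was 1.00. Without 1 library at a time, the type IV median ranged from 0.080 to 0.44, and with at least 10 counts in every library it was 1.02.

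The HD lines also differed from each other, with 10 collagens higher and 18 lower in the HD-homo line, where 71.6% of all tested genes passed (36.0% higher and 35.6% lower). A difference of at least 1 log2 unit as well was seen for 21, against 24.3% of all genes, and 27 did not overlap, against 72.8% of all genes. Both comparisons with control share the control libraries, so their values are set side by side here. Against control, 12 collagens were higher in both HD lines (13.6% of all tested genes were), 2 (Col18a1 and Col4a3) were lower in both (11.6% of all), and 6 were called in opposite directions (Col1a2, Col5a2, Col11a1, Col4a1, Col4a2 and Col4a5), a pattern that 14.5% of all tested genes showed. Of the 33, 18 passed in all 3 comparisons, where 29.3% of all tested genes did.

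**Figure D2:**
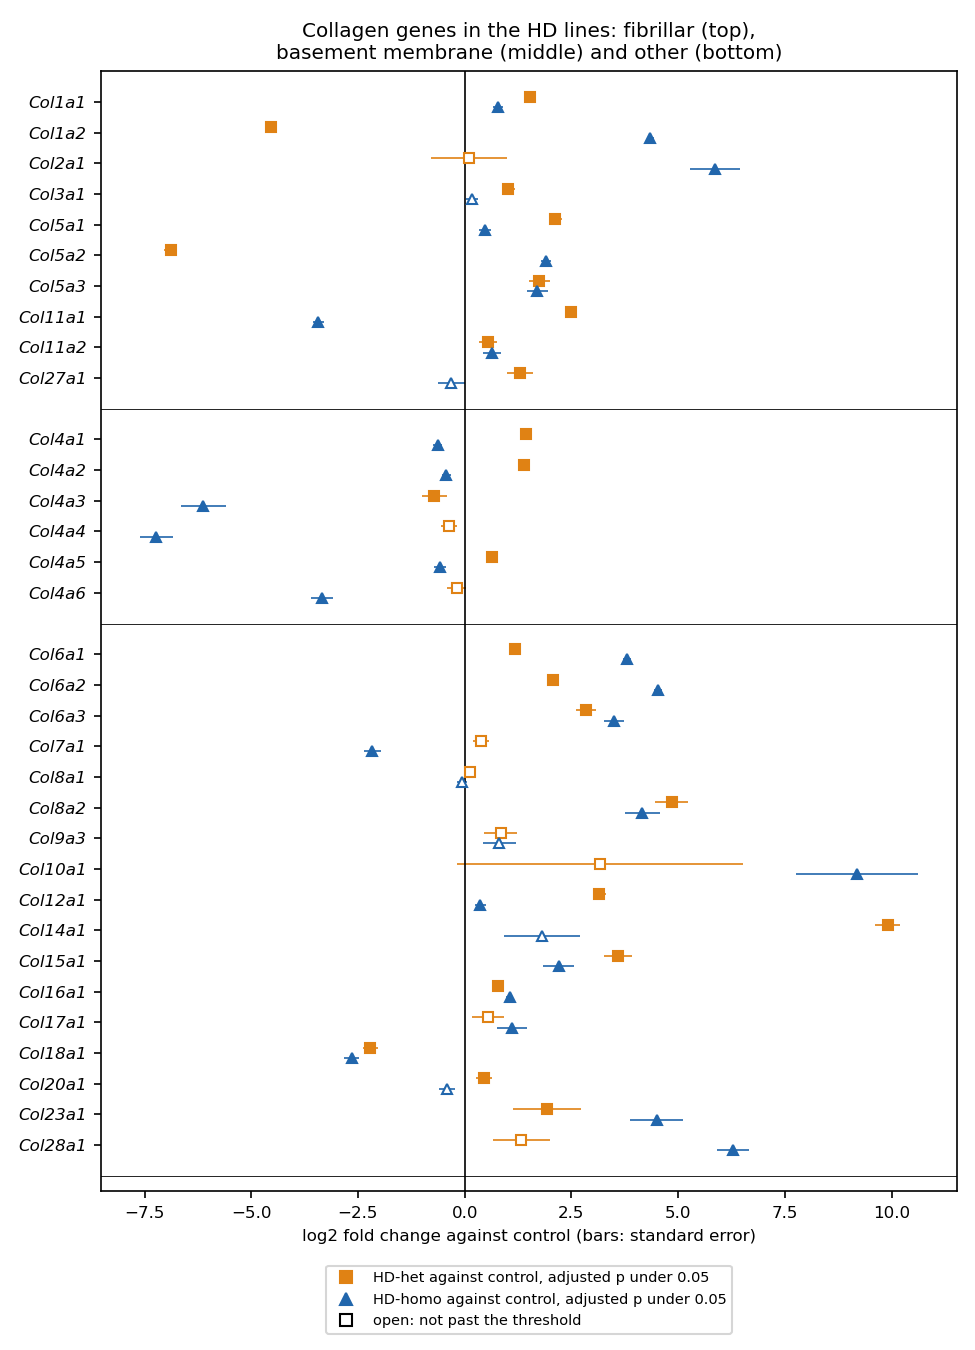
Log2 fold change of each of the 33 tested collagen genes in HD-het (squares) and HD-homo cells (triangles) against control, with the standard error; open symbols did not pass an adjusted p of 0.05. All 6 type IV genes are left of 0 in HD-homo cells, and Col1a2 and Col5a2 lie on opposite sides of 0 in the HD lines; fitted values of genes with almost no read in a line, such as Col14a1 and Col10a1, depend on the fit's prior count.

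**Figure D3:**
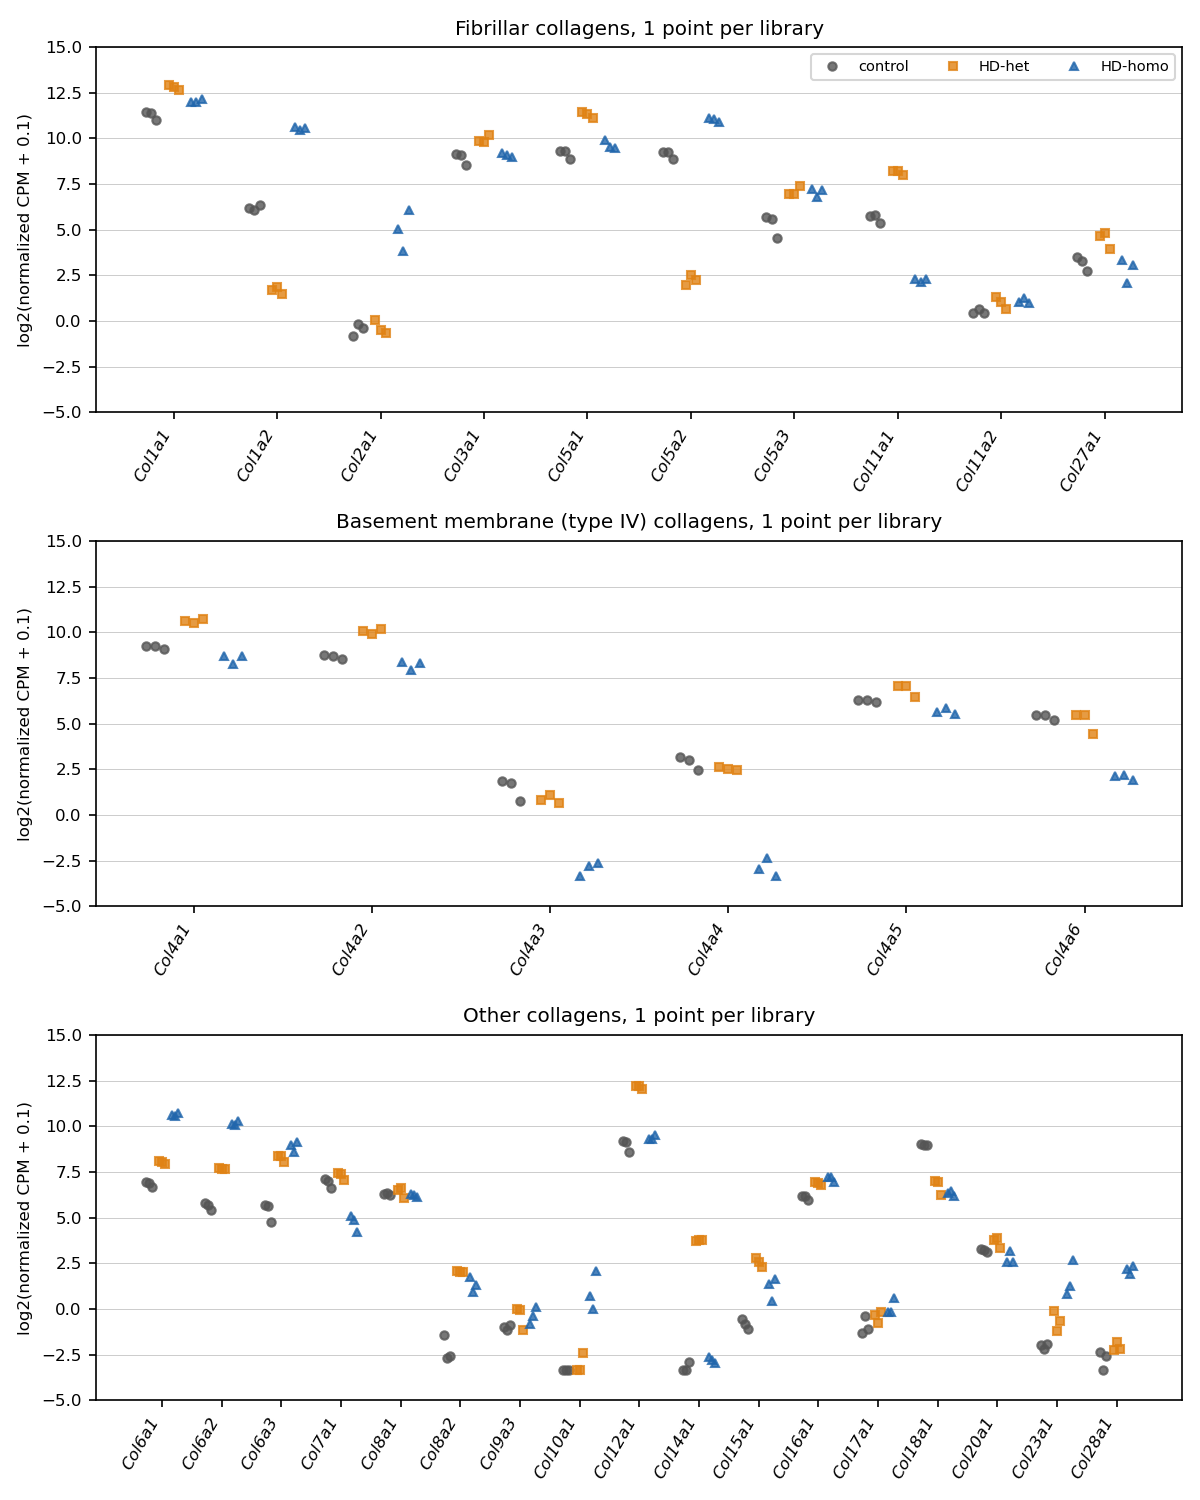
Normalized CPM of the tested collagen genes in each of the 9 libraries, on a log2 scale with 0.1 CPM added; circles are control, squares HD-het and triangles HD-homo libraries. The libraries of a line lie close together for the abundant genes, and Col1a2 and Col5a2 are separated between the lines by more than any other abundant fibrillar gene.

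The chains of type I collagen were not changed together. Col1a1 (chr11:94936224-94953042, plus strand, GRCm38), which encodes the alpha1 chain of the main collagen of fibrils, was counted at 2733, 2635 and 2027 CPM in control, 7791, 7172 and 6329 in HD-het and 4136, 4075 and 4493 in HD-homo libraries. No library of a line overlapped another line, and Col1a1 was higher in HD-homo (edgeR, log2 0.78 ± 0.116, adjusted p = 1.5e-04) and in HD-het cells (log2 1.53 ± 0.118, adjusted p = 8.6e-07) than in control.

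Col1a2 (chr6:4504814-4541544, plus strand), the alpha2 chain that joins it in the usual type I trimer, was counted at 71.9, 68.1 and 80.2 CPM in control, 3.21, 3.54 and 2.7 in HD-het and 1556, 1411 and 1516 in HD-homo libraries. These are 2311, 2290 and 2372 reads in control, 114, 116 and 90 in HD-het and 50747, 59571 and 50814 in HD-homo libraries. HD-homo cells were highest, HD-het cells lowest, and the lines were far from overlapping. Col1a2 was 20.4-fold higher than control in HD-homo cells (edgeR, log2 4.35 ± 0.0908, adjusted p = 1.8e-11) and 23.3-fold lower in HD-het cells (log2 -4.54 ± 0.106, adjusted p = 1.3e-10). Between the HD lines the levels differed 474-fold (log2 8.89 ± 0.118, adjusted p = 1.8e-12).

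The alpha1 to alpha2 ratio, per kilobase of transcript, was 34.3, 34.9 and 22.8 in control, 2190, 1830 and 2120 in HD-het and 2.40, 2.61 and 2.67 in HD-homo libraries. The usual type I protein holds more alpha1 than alpha2 chains. The ratio was lowest in HD-homo and highest in HD-het libraries, without overlap.

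The promoter window of Col1a2 is shown because this gene had the largest difference between the HD lines. It spans 250 bases before to 50 bases after the RefSeq start site (GRCm38.p6, chr6:4505368-4505667, plus strand), and capitals mark CCAAT or its reverse complement ATTGG and GGGCGG or its reverse complement CCGCCC.
Col1a2: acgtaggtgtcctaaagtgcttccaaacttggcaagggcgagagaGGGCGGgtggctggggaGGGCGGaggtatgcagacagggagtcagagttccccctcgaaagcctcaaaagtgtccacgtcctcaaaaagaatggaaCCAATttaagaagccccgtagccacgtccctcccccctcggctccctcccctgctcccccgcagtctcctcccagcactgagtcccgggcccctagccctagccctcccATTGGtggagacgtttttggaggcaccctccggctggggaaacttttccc
It held 2 CCAAT and 2 GGGCGG matches, and TATAAA was absent from this window. The CCAAT match before the RefSeq start site lies at -109, and the other (ATTGG) lies past that site. The RefSeq start used, 4505618, is downstream of the gene start given above, 4504814, so the window depends on the start chosen. Among all windows, CCAAT was found on either strand in 37.4% of 32851 RefSeq windows of this length and in 34.2% of the 38 collagen windows, TATAAA in 13.6 and 13.2%, and GGGCGG in 35.7 and 60.5%. The windows cover 35 of the 44 collagen genes, and Col1a1 is not among them. A match of letters is a description and not a binding site.

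Type V collagen, which is built into type I fibrils and limits their width, showed the same kind of split. Col5a1 was counted at 637, 635 and 469.9 CPM in control, 2745, 2611 and 2222 in HD-het and 969, 746 and 707 in HD-homo libraries. It was higher in HD-het cells (edgeR, log2 2.12 ± 0.149, adjusted p = 4.4e-07) and slightly higher in HD-homo cells (log2 0.48 ± 0.143, adjusted p = 0.0143). The HD-homo call did not survive the loss of control replicate 3 (log2 0.34, adjusted p = 0.0573) or of HD-homo replicate 1 (log2 0.32, adjusted p = 0.0634).

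Col5a2 (chr1:45374321-45503282, minus strand), its usual partner, was counted at 606, 603 and 465 CPM in control, 3.89, 5.55 and 4.73 in HD-het and 2220, 2127 and 1912 in HD-homo libraries. HD-homo libraries lay above and HD-het libraries far below control, at 138, 182 and 158 reads in HD-het cells. The level was 118-fold lower than control in HD-het cells (edgeR, log2 -6.89 ± 0.158, adjusted p = 1.2e-10) and higher than control in HD-homo cells (log2 1.90 ± 0.119, adjusted p = 1.2e-07). Between the HD lines it differed 442-fold (log2 8.79 ± 0.168, adjusted p = 1.0e-11). The Col5a1 to Col5a2 ratio per kilobase was 0.829, 0.829 and 0.796 in control, 556, 371 and 370 in HD-het and 0.344, 0.277 and 0.291 in HD-homo libraries.

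Col5a3, a minor type V chain, was counted at 52.1, 48.4 and 23.2 CPM in control, 126, 124 and 166 in HD-het and 149.9, 111 and 143 in HD-homo libraries. Both HD lines were higher than control (edgeR, log2 1.75 ± 0.248, adjusted p = 8.7e-05 in HD-het and log2 1.70 ± 0.247, adjusted p = 1.3e-04 in HD-homo cells), and their libraries overlapped each other.

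Col3a1, the chain of the homotrimeric type III collagen of elastic tissues, lies on chromosome 1 tail to tail with Col5a2, with 24614 bases between them. It was counted at 561, 541 and 369.7 CPM in control, 924, 894 and 1174 in HD-het and 584, 555 and 514 in HD-homo libraries. In HD-het cells Col3a1 was higher than control (edgeR, log2 1.02 ± 0.149, adjusted p = 1.1e-04), whereas in HD-homo cells it overlapped control and did not pass (log2 0.17 ± 0.148, adjusted p = 0.353). The neighbours therefore had opposite differences from control in HD-het cells.

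**Figure D4:**
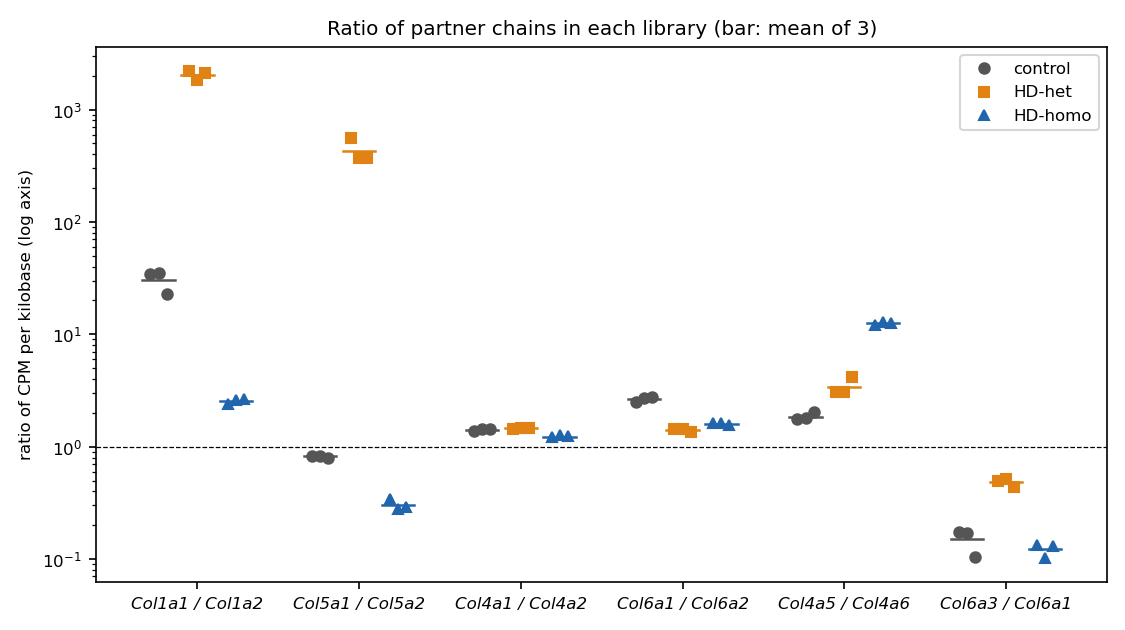
Ratio of CPM per kilobase between chains that assemble together, in each library (symbols) with the mean of 3 libraries (bars), on a log axis; the dashed line marks equal levels. Col1a1 to Col1a2 averages 30.7 in control, 2040 in HD-het and 2.56 in HD-homo cells, whereas Col4a1 to Col4a2 stays between 1.21 and 1.47 in all 9 libraries.

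The minor fibrillar collagens also separated the lines. Col11a1, a chain of the type XI collagen found in cartilage fibrils, was counted at 53.2, 55 and 40.8 CPM in control, 293, 297 and 256 in HD-het and 4.75, 4.36 and 4.77 in HD-homo libraries. HD-het libraries were highest and HD-homo libraries lowest, without overlap (edgeR, log2 2.50 ± 0.107, adjusted p = 1.2e-08 in HD-het and log2 -3.43 ± 0.125, adjusted p = 1.5e-09 in HD-homo cells against control), a 60.9-fold difference between the HD lines. Col11a2, its partner, stayed between 38 and 99 reads in all libraries. Its values were higher in both HD lines (edgeR, log2 0.55 ± 0.207, adjusted p = 0.0349 in HD-het and log2 0.64 ± 0.204, adjusted p = 0.0187 in HD-homo cells). Both calls were lost without control replicate 1 (log2 0.50, adjusted p = 0.104, and log2 0.60, adjusted p = 0.0666) and without some other libraries.

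Col27a1, a fibrillar collagen of developing cartilage, was counted at 11.1, 9.72 and 6.66 CPM in control, 24.9, 27.7 and 15.2 in HD-het and 9.93, 4.1 and 8.41 in HD-homo libraries. It exceeded control in HD-het cells (edgeR, log2 1.30 ± 0.304, adjusted p = 0.00285), while HD-homo libraries overlapped control (log2 -0.31 ± 0.318, adjusted p = 0.426).

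Col2a1, the main collagen of cartilage, was counted at 0.467, 0.803 and 0.676 CPM in control, 0.93, 0.61 and 0.539 in HD-het and 32.8, 14.4 and 67.4 in HD-homo libraries. HD-homo libraries were all above the others but differed widely among themselves, and the level was 58.9-fold higher than in control cells (edgeR, log2 5.87 ± 0.588, adjusted p = 6.5e-06). Without HD-homo replicate 3 the log2 fold change was 5.16. HD-het libraries overlapped control (log2 0.10 ± 0.889, adjusted p = 0.929). Other cartilage and bone markers moved with it in part. The list of 8 summed to 115 to 126 CPM in control, 102 to 114 in HD-het and 194 to 214 in HD-homo libraries, and 2 of the 8 did not pass the floor in any library. Sox9 stood at means of 17.9 CPM in control, 19.2 in HD-het and 68.0 in HD-homo cells, Acan at 3.28, 1.67 and 76.3 CPM, and Runx2, lower in HD-homo cells, at 98.7, 88.3 and 59.4 CPM. Their part in the Col2a1 result was not tested.

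All 6 type IV genes were lowest in HD-homo cells, below control and below HD-het. The alpha1 and alpha2 chains, which form the network common to basement membranes, changed together. Col4a1 was counted at 618, 603 and 546 CPM in control, 1595, 1470 and 1710 in HD-het and 413, 314 and 413 in HD-homo libraries. Col4a2 was counted at 432, 411 and 371 CPM in control, 1074, 975 and 1142 in HD-het and 333, 244 and 326 in HD-homo libraries. Each was highest in HD-het and lowest in HD-homo libraries, with no overlap between lines.

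Against control, Col4a1 was higher in HD-het (edgeR, log2 1.43 ± 0.107, adjusted p = 6.9e-07) and lower in HD-homo cells (log2 -0.63 ± 0.106, adjusted p = 3.6e-04), and Col4a2 was likewise higher in HD-het (log2 1.39 ± 0.115, adjusted p = 1.4e-06) and lower in HD-homo cells (log2 -0.43 ± 0.113, adjusted p = 0.00709). Their ratio per kilobase was 1.42 ± 0.0229 in control, 1.46 ± 0.0114 in HD-het and 1.23 ± 0.0229 in HD-homo cells, so that the ratio differed far less between lines than either gene did.

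The windows around the starts of Col4a1 and Col4a2 are shown because these genes are divergently transcribed and moved together. Col4a1 (chr8:11198423-11312826, minus strand) and Col4a2 (chr8:11312805-11449287, plus strand) overlap by 22 bases at their 5′ ends, and their windows share 78 bases. The library kit was directional, but the sources used here do not say whether counting used the strand. Windows are given 5′ to 3′ on the strand of each gene, from RefSeq (GRCm38.p6), at chr8:11312777-11313076 for Col4a1 and chr8:11312555-11312854 for Col4a2, with the same motifs in capitals.
Col4a1: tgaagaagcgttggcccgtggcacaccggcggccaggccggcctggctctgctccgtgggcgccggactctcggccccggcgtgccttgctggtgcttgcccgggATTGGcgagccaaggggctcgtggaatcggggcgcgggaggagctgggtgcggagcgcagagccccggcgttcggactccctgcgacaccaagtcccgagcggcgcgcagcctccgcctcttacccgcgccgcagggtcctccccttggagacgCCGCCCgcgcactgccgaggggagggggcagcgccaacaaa
Col4a2: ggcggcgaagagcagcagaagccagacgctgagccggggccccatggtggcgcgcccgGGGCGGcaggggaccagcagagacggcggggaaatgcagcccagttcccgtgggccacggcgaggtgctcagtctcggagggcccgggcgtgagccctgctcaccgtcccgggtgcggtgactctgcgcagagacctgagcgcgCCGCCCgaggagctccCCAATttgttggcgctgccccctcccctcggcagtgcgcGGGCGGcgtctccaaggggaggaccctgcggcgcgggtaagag
Neither window held TATAAA. Col4a1 had 1 CCAAT and 1 GGGCGG match, Col4a2 had 1 CCAAT match and 3 GGGCGG matches, and their GC content was 74.0 and 73.7%. The GGGCGG match of Col4a1 lies in the shared bases and is the same site as 1 of the 3 in Col4a2.

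The other type IV chains, which form the specialized networks of basement membranes such as those of the kidney glomerulus and smooth muscle, lie in head-to-head pairs as well. Col4a3 and Col4a4 start 71 bases apart on chromosome 1. Col4a4 was counted at 285, 264 and 163 reads in control, 218, 187 and 180 in HD-het and 1, 4 and 0 in HD-homo libraries. Col4a3 was counted at 112, 112 and 48 reads in control, 60, 66 and 49 in HD-het and 0, 2 and 2 in HD-homo libraries. Both were close to absent in HD-homo cells and had overlapping ranges in control and HD-het cells.

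On the summed reads, Col4a4 was 162-fold below control in HD-homo cells (95% exact interval 69.0 to 500.0, counting error only) and Col4a3 was 77.3-fold lower (29.8 to 286). Both passed (edgeR adjusted p = 3.3e-08 and 1.6e-06). In HD-het cells Col4a3 passed narrowly (log2 -0.71 ± 0.284, adjusted p = 0.0454), and not without control replicate 1 (log2 -0.53, adjusted p = 0.174). Col4a4 did not pass there (log2 -0.37 ± 0.196, adjusted p = 0.119) except without control replicate 3 (log2 -0.54, adjusted p = 0.0292).

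Col4a5 and Col4a6 lie 1308 bases apart on chromosome X, head to head. Col4a5 was counted at 77.9, 77.7 and 74.3 CPM in control, 132, 135 and 88 in HD-het and 50.7, 58.3 and 45.9 in HD-homo libraries, and was higher than control in HD-het (edgeR, log2 0.63 ± 0.142, adjusted p = 0.0023) and lower in HD-homo cells (log2 -0.57 ± 0.143, adjusted p = 0.00553). Col4a6 was counted at 45.3, 44.2 and 37.5 CPM in control, 44.3, 45.1 and 21.6 in HD-het and 4.26, 4.55 and 3.67 in HD-homo libraries. It was 10.2-fold lower than control in HD-homo cells (log2 -3.34 ± 0.255, adjusted p = 6.8e-07), and HD-het libraries overlapped control (log2 -0.19 ± 0.216, adjusted p = 0.454). The Col4a5 to Col4a6 ratio per kilobase was 1.85 ± 0.144 in control, 3.41 ± 0.629 in HD-het and 12.6 ± 0.473 in HD-homo cells, so the ratio of this pair of neighbours differed more between the lines than that of Col4a1 and Col4a2.

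Type VI collagen, the beaded filament that links cells to the surrounding matrix, was more abundant in both HD lines. Its 3 tested chains all rose there and stood highest in HD-homo cells. Together they summed to 208.9 CPM in control, 779.4 CPM in HD-het and 3251 CPM in HD-homo cells. Col6a1 and Col6a2 are neighbours on chromosome 10, 85161 bases apart on the minus strand, and Col6a3 lies on chromosome 1.

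Col6a1 was counted at 122, 121 and 104 CPM in control, 273, 260.2 and 247 in HD-het and 1568, 1545 and 1730 in HD-homo libraries. Col6a2 was counted at 55.1, 50.9 and 43 CPM in control, 215, 205 and 206 in HD-het and 1108, 1087 and 1257 in HD-homo libraries. Col6a3 was counted at 52.7, 50.5 and 26.8 CPM in control, 334, 331 and 268 in HD-het and 512, 390.2 and 558 in HD-homo libraries. No line overlapped another for any of the 3 genes.

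Against control, Col6a1 was 13.9-fold higher in HD-homo cells (edgeR, log2 3.80 ± 0.0847, adjusted p = 2.5e-11) and also higher in HD-het cells (log2 1.17 ± 0.0774, adjusted p = 2.8e-07). Col6a2 was 23.2-fold higher in HD-homo cells (log2 4.53 ± 0.101, adjusted p = 2.5e-11) and higher in HD-het cells (log2 2.07 ± 0.0917, adjusted p = 1.5e-08). For Col6a3 the difference was 11.2-fold in HD-homo cells (log2 3.49 ± 0.233, adjusted p = 2.2e-07) and 7.17-fold in HD-het cells (log2 2.84 ± 0.227, adjusted p = 1.1e-06), and its difference between the HD lines (log2 0.65 ± 0.209, adjusted p = 0.016) was lost without HD-het replicate 3 (log2 0.55, adjusted p = 0.0593). Per kilobase, Col6a3 stood at 0.150 ± 0.0393 of Col6a1 in control, 0.484 ± 0.0398 in HD-het and 0.122 ± 0.0168 in HD-homo cells. Col6a4 and Col6a5, which can take the place of Col6a3, had at most 6 reads in any library, and Col6a6 had none.

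Among the fibril-associated collagens, Col12a1, which binds type I fibrils in tissues under tension, rose most in reads. It was counted at 598, 573 and 387 CPM in control, 4758, 4736 and 4306 in HD-het and 644, 628 and 747 in HD-homo libraries. HD-het libraries were far above the others, and Col12a1 took 23.2% of all collagen CPM there, against 7.51% in control cells. It was 8.86-fold higher than control in HD-het cells (edgeR, log2 3.15 ± 0.152, adjusted p = 2.7e-08) and only slightly higher in HD-homo cells (log2 0.37 ± 0.14, adjusted p = 0.0393). That call was lost without control replicate 3 (log2 0.20, adjusted p = 0.0896), without HD-homo replicate 3 (log2 0.29, adjusted p = 0.117) and in some other alternatives.

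Col14a1, a close relative that binds fibrils through decorin, was found almost only in HD-het cells, at 0, 0 and 1 reads in control, 473, 455 and 460 in HD-het and 2, 2 and 1 in HD-homo libraries. The HD-het level was 296 times the HD-homo level (95% exact interval 127 to 913, counting error only) and 1300 times the control level, where 1 read was seen (233 to 51500). Both passed (edgeR adjusted p = 2.4e-10 and 1.0e-09), and no ratio is given between control and HD-homo cells, which were both under the floor.

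Col16a1 was counted at 72.5, 72 and 61.5 CPM in control, 122, 120 and 112 in HD-het and 149.7, 153 and 123 in HD-homo libraries. It was higher in both HD lines than in control, without overlap (edgeR, log2 0.78 ± 0.0915, adjusted p = 2.1e-05 in HD-het and log2 1.05 ± 0.0916, adjusted p = 2.1e-06 in HD-homo cells). The small difference between the HD lines (log2 0.27, adjusted p = 0.0192) was lost without HD-het replicate 3 (log2 0.23, adjusted p = 0.065). Col20a1 was counted at 9.83, 9.19 and 8.76 CPM in control, 13.6, 14.8 and 9.94 in HD-het and 5.76, 9.09 and 5.82 in HD-homo libraries. Its HD-het value (edgeR, log2 0.46 ± 0.186, adjusted p = 0.0462) lost its call when any control library was left out (log2 0.42, adjusted p = 0.122 for replicate 3). Leaving out HD-het replicate 1 (log2 0.42, adjusted p = 0.126) or 2 (log2 0.35, adjusted p = 0.169) did the same. Its HD-homo value (log2 -0.42 ± 0.191, adjusted p = 0.0812) passed without HD-homo replicate 2 (log2 -0.68, adjusted p = 0.0043). Col9a3, a cartilage chain, had 12 to 33 reads per library and passed in no comparison, but without HD-het replicate 3 it passed against control in HD-het (log2 1.16, adjusted p = 0.0107) and HD-homo cells (log2 0.81, adjusted p = 0.0436).

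The multiplexins Col15a1 and Col18a1, basement membrane collagens that carry heparan or chondroitin sulfate, went in opposite directions. Col18a1, the source of the fragment endostatin, was counted at 523, 502 and 509.6 CPM in control, 131, 125 and 75.1 in HD-het and 81.2, 89.5 and 73.5 in HD-homo libraries. Control libraries were all above both HD lines, and Col18a1 was 4.63-fold lower in HD-het (edgeR, log2 -2.21 ± 0.17, adjusted p = 8.4e-07) and 6.28-fold lower in HD-homo cells (log2 -2.65 ± 0.173, adjusted p = 1.8e-07). The HD lines overlapped each other because of HD-het replicate 3, and their difference (log2 -0.44 ± 0.165, adjusted p = 0.0321) was lost, for example, without HD-het replicate 1 (log2 -0.30, adjusted p = 0.146).

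Col15a1 was counted at 0.591, 0.476 and 0.372 CPM in control, 6.82, 5.76 and 4.91 in HD-het and 2.45, 1.25 and 3.07 in HD-homo libraries. It was rare but higher in HD-het (edgeR, log2 3.59 ± 0.331, adjusted p = 3.3e-06) and in HD-homo cells (log2 2.20 ± 0.355, adjusted p = 2.8e-04) than in control, with no overlap. In contrast, Col7a1, the anchoring fibril collagen below epithelia, was counted at 139.8, 127 and 99 CPM in control, 177, 166 and 136 in HD-het and 34.4, 28.9 and 18.8 in HD-homo libraries. It was lower than control in HD-homo cells (log2 -2.16 ± 0.199, adjusted p = 3.3e-06), while HD-het libraries overlapped control (log2 0.39 ± 0.187, adjusted p = 0.0869), although this value passed without HD-homo replicate 3 (log2 0.39, adjusted p = 0.0181) and in a fit of these lines alone (adjusted p = 0.018).

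Of the short-chain collagens, Col8a1 varied little, at 77.3, 80.6 and 76.7 CPM in control, 90.8, 97.5 and 68.1 in HD-het and 78.8, 76.4 and 69.7 in HD-homo libraries. The 3 lines overlapped and no comparison passed (edgeR adjusted p = 0.325 in HD-het and 0.659 in HD-homo cells against control). Without HD-het replicate 3, HD-het cells passed against control (log2 0.27, adjusted p = 0.00606). Its partner Col8a2 was counted at 9, 2 and 2 reads in control, 146, 131 and 134 in HD-het and 109, 78 and 80 in HD-homo libraries. It was low in control and higher in both HD lines (edgeR, log2 4.85 ± 0.386, adjusted p = 1.1e-06 in HD-het and log2 4.16 ± 0.403, adjusted p = 4.9e-06 in HD-homo cells). Of 13 control reads 9 were in replicate 1, without which the log2 fold changes were 5.92 and 5.23. The difference between the HD lines (log2 -0.69, adjusted p = 0.0255) was lost without HD-homo replicate 2 (log2 -0.50, adjusted p = 0.0827).

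Col10a1, the collagen of hypertrophic cartilage, was counted at 0, 0 and 0 reads in control, 0, 0 and 3 in HD-het and 50, 38 and 138 in HD-homo libraries. It was seen almost only in HD-homo cells, most of it in replicate 3. Against the floor of 3 counts per library it was at least 23.1-fold higher than control in HD-homo cells (edgeR adjusted p = 4.6e-04), and its ratio to HD-het cells was 70.7 (95% exact interval 23.9 to 345, counting error only), with an adjusted p = 4.2e-04.

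Col28a1, a collagen of peripheral nerve, was counted at 3, 0 and 2 reads in control, 4, 6 and 4 in HD-het and 146, 157 and 168 in HD-homo libraries. HD-homo libraries were all above the others, at 82.9 times control (95% exact interval 35.3 to 256, counting error only) and 31.6 times HD-het (18.6 to 58.2). Both comparisons passed (edgeR adjusted p = 8.5e-08 and 9.8e-08). The transmembrane collagens Col17a1 and Col23a1 were rare, with at most 48 and 210 reads. Col23a1 exceeded control in HD-homo cells (edgeR, log2 4.50 ± 0.624, adjusted p = 8.9e-05), with 3.75 on the log2 scale without HD-homo replicate 3, and its HD-het value (log2 1.93 ± 0.787, adjusted p = 0.0499) was lost without, for example, control replicate 2 (log2 1.79, adjusted p = 0.121). Col17a1 was higher in HD-homo cells (log2 1.11 ± 0.358, adjusted p = 0.0203). Its call was lost without control replicate 1 (log2 0.89, adjusted p = 0.0826), control replicate 3 (log2 0.99, adjusted p = 0.0697) or HD-homo replicate 3 (log2 0.77, adjusted p = 0.0769).

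The remaining 11 collagens could not be tested. Col13a1, Col19a1, Col22a1, Col24a1, Col25a1, Col26a1, Col6a4, Col6a5 and Col9a2 had between 1 and 18 reads in the library where each was highest, and Col6a6 and Col9a1 had none in any library. Col22a1 was counted at 0, 2 and 2 reads in control, 0, 0 and 0 in HD-het and 6, 10 and 18 in HD-homo libraries. Col26a1 was counted at 1, 3 and 4 reads in control, 9, 7 and 8 in HD-het and 1, 7 and 6 in HD-homo libraries. The others were not detectable at this depth or close to the floor.

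Genes that modify, fold, process and bind collagen were described from a list of 66 genes, of which 55 were tested. Against control, 33 were higher and 14 lower in HD-homo cells, and 41 were higher and 6 lower in HD-het cells. Between the HD lines, 19 were higher and 30 lower in HD-homo cells. These counts stand beside the 58.6, 65.1 and 71.6% of all tested genes that passed.

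Of the 14 tested genes for hydroxylation and glycosylation of the chains, 11 were higher and 2 lower in HD-homo cells, and 11 were higher and none lower in HD-het cells, at an adjusted p under 0.05 in edgeR. P4ha1, a catalytic subunit of prolyl 4-hydroxylase, stood at 139 ± 2.58 CPM in control, 174 ± 4.4 CPM in HD-het and 143 ± 4.26 CPM in HD-homo cells (n = 3), and was higher in HD-het cells (log2 0.33 ± 0.0498, adjusted p = 1.5e-04) but not past the threshold in HD-homo cells (log2 0.04 ± 0.0498, adjusted p = 0.513). P4ha2, another catalytic subunit, stood at 22.2 ± 1.81 CPM in control, 29.4 ± 0.772 CPM in HD-het and 80.6 ± 4.65 CPM in HD-homo cells, with its larger difference in HD-homo cells (log2 1.86 ± 0.0747, adjusted p = 3.5e-09). P4ha3 stood at 7.79 ± 0.123 CPM in control, 24.8 ± 1.5 CPM in HD-het and 16.8 ± 4.09 CPM in HD-homo cells, with its larger difference in HD-het cells (log2 1.67 ± 0.146, adjusted p = 2.2e-06).

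Among 10 genes for folding and export, 5 were higher and 1 lower in HD-homo cells, and 8 were higher and 1 lower in HD-het cells. Serpinh1 (Hsp47), the chaperone that binds the collagen triple helix, stood at 558 ± 22.7 CPM in control, 995 ± 44.9 CPM in HD-het and 574 ± 36.4 CPM in HD-homo cells. It was higher in HD-het cells (edgeR, log2 0.83 ± 0.0656, adjusted p = 1.0e-06), whereas HD-homo libraries overlapped control (log2 0.039 ± 0.0652, adjusted p = 0.627), although their collagen sum was higher. Creb3l1, a membrane-bound transcription factor known to act on collagen genes, stood at 14.2 ± 1.72 CPM in control, 129 ± 5.65 CPM in HD-het and 18.2 ± 3.4 CPM in HD-homo cells (log2 3.18 ± 0.132, adjusted p = 1.0e-08 in HD-het cells). Fkbp14, a prolyl isomerase of the endoplasmic reticulum, stood at 6.69 ± 0.258 CPM in control, 28.1 ± 1.41 CPM in HD-het and 13.3 ± 1.31 CPM in HD-homo cells (log2 2.07 ± 0.0914, adjusted p = 1.5e-08 in HD-het cells).

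Genes that remove the propeptides were higher in 4 and lower in 2 of 6 cases in HD-homo cells, and higher in 4 and lower in 1 in HD-het cells. Tll1, a procollagen C-proteinase, was counted at 5.29, 5.83 and 2.54 CPM in control, 146, 146 and 129.9 in HD-het and 41.7, 26.3 and 35.4 in HD-homo libraries, and both HD lines were above control (edgeR, log2 4.94 ± 0.244, adjusted p = 3.2e-08 in HD-het and log2 2.90 ± 0.237, adjusted p = 1.2e-06 in HD-homo cells). Adamts14, a procollagen N-proteinase, stood at 3.25 ± 0.385 CPM in control, 2.79 ± 0.439 CPM in HD-het and 37.4 ± 9.21 CPM in HD-homo cells and was higher in HD-homo cells (log2 3.53 ± 0.19, adjusted p = 3.6e-08).

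Of 7 crosslinking genes, 4 were higher and 3 lower in HD-homo cells, and 4 were higher and 1 lower in HD-het cells. Lox, the lysyl oxidase that starts the crosslinks of fibrils, was counted at 218, 223 and 157 CPM in control, 2825, 2947 and 2578 in HD-het and 1783, 1898 and 2390 in HD-homo libraries. Both HD lines were above control without overlap (edgeR, log2 3.80 ± 0.155, adjusted p = 9.2e-09 in HD-het and log2 3.34 ± 0.152, adjusted p = 9.2e-09 in HD-homo cells), and it was the most abundant of the crosslinking genes in both. Tgm2, a transglutaminase, stood at 2.71 ± 0.29 CPM in control, 29.7 ± 4.37 CPM in HD-het and 4.93 ± 1.17 CPM in HD-homo cells (log2 3.46 ± 0.183, adjusted p = 5.4e-08 in HD-het cells).

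The fibril-binding proteoglycans held the largest differences of the lists. Bgn (biglycan) was counted at 6.1, 5.92 and 4.16 CPM in control, 1314, 1265 and 1378 in HD-het and 1042, 757 and 897 in HD-homo libraries. It was 245-fold higher than control in HD-het cells (edgeR, log2 7.93 ± 0.17, adjusted p = 7.0e-11) and 167-fold higher in HD-homo cells (log2 7.37 ± 0.166, adjusted p = 2.7e-11). Aspn (asporin) was found mainly in HD-homo cells, at 0.28, 0.178 and 0.0338 CPM in control, 0.874, 0.671 and 0.629 in HD-het and 72.4, 129.8 and 70.3 in HD-homo libraries (log2 9.05 ± 0.393, adjusted p = 6.3e-09 in HD-homo cells). Of the 6 tested genes, 4 were higher and 2 lower in HD-homo cells, and 5 were higher and 1 lower in HD-het cells.

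Collagen receptors were higher in 4 and lower in 3 of 8 cases in HD-homo cells, and higher in 6 and lower in 1 in HD-het cells. Ddr2, a receptor tyrosine kinase for fibrillar collagen, was counted at 10.3, 10.3 and 11.3 CPM in control, 3.33, 3.48 and 3.47 in HD-het and 242, 265 and 251 in HD-homo libraries. Its level was higher than control in HD-homo cells (edgeR, log2 4.57 ± 0.0672, adjusted p = 5.0e-12) and lower in HD-het cells (log2 -1.63 ± 0.0763, adjusted p = 2.1e-08), in the same directions as Col1a2 and Col5a2. Loxl4 and Dcn, from the lists above, were also called in these directions. Opposite calls in the HD lines were found for 14.5% of all tested genes, and a link between these genes was not tested. Itga2, the alpha subunit of a collagen-binding integrin, stood at 0.0739 ± 0.0477 CPM in control, 0.645 ± 0.192 CPM in HD-het and 17 ± 9.1 CPM in HD-homo cells (adjusted p = 1.8e-06 in HD-homo cells against control). Control libraries held 7 Itga2 reads in all, and on summed reads the HD-homo level was 220.0 times the control level (95% exact interval 106 to 548, counting error only). Of 4 tested collagenases, 1 was higher and 1 lower in HD-homo cells, and 3 were higher and 1 lower in HD-het cells. Mmp2 stood at 15.4 ± 0.953 CPM in control, 34 ± 3.26 CPM in HD-het and 153 ± 18.3 CPM in HD-homo cells (log2 3.31 ± 0.105, adjusted p = 5.0e-10 in HD-homo cells), and Mmp14, a membrane-bound collagenase, at 338 ± 16 CPM in control, 662 ± 52 CPM in HD-het and 208 ± 16.7 CPM in HD-homo cells (log2 0.97 ± 0.0767, adjusted p = 1.1e-06 in HD-het and log2 -0.70 ± 0.0767, adjusted p = 1.4e-05 in HD-homo cells).

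**Figure D5:**
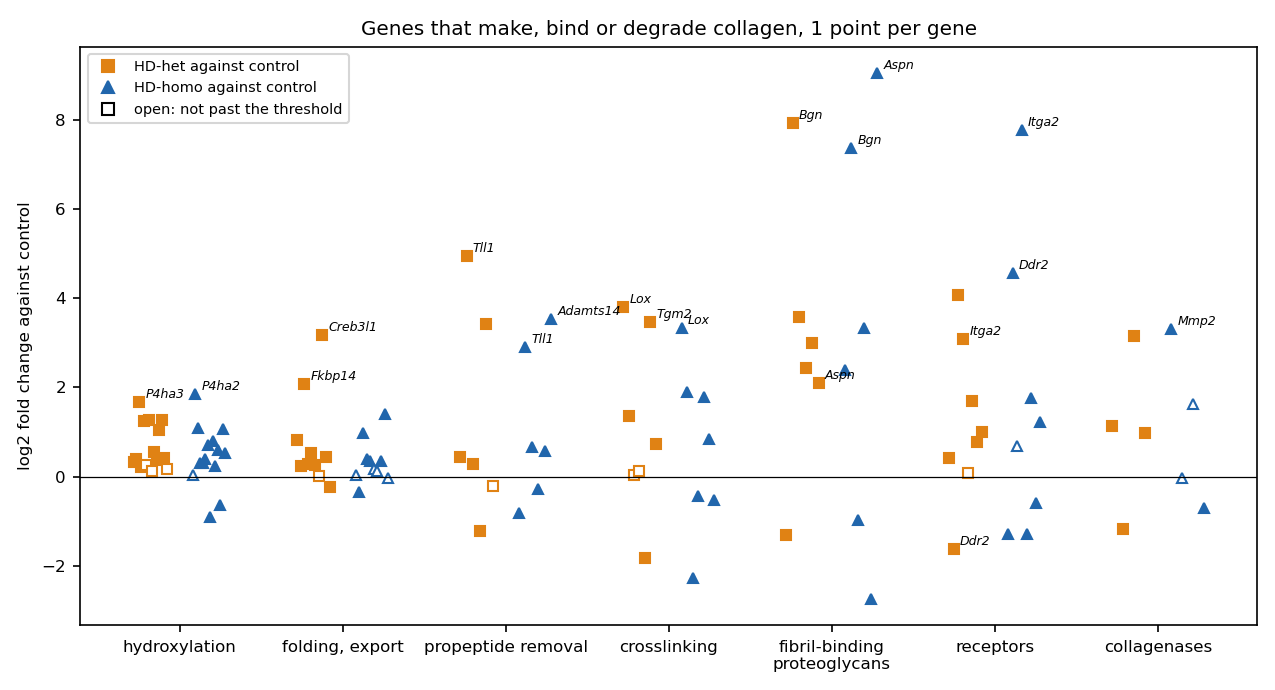
Log2 fold change against control of the 55 tested genes that modify, fold, process, bind or degrade collagen, by list, in HD-het (squares) and HD-homo cells (triangles); open symbols did not pass an adjusted p of 0.05. Bgn lies at 7.93 and 7.37, Lox at 3.80 and 3.34, and Ddr2 on opposite sides of 0 in the HD lines.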

How the data were processed

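RNA-seq libraries were made by the authors from total RNA with a directional poly(A) kit. The deposited table holds whole-number counts per gene and library, not normalized. The submitters' processing notes name cutadapt, Bowtie 1.1.2, RSEM 1.3.0, DESeq2 and the builds GRCm38.p5 and mm10, with no role or order given, so the deposited counts may be rounded RSEM estimates, in which reads shared by genes are split. Date-like symbols in 26 rows, left by spreadsheet software, were kept as listed. Genes were filtered with filterByExpr (minimum count 10), which left 13508, and tested with edgeR 4.0.16 (R 4.3.3, limma 3.58.1) by the quasi-likelihood test, with TMM normalization, 1 mean per line over all 9 libraries and Benjamini-Hochberg adjustment within each comparison. DESeq2 1.42.0 was an alternative. Levels are CPM, or CPM per kilobase of the longest coding transcript (GENCODE, GRCm38). The floor was 3 counts per library, and intervals and floors cover counting error only. The script was tested on simulated data. Collagen genes with at least 10 CPM in a line or among the 5 largest called changes of a comparison are given per library, and from each other list the 2 largest called changes against control among genes whose mean reached 10 CPM in the higher of the lines compared, plus Serpinh1, Lox and P4ha1. The members and lists were chosen with earlier results of these data known. Protein sequences were not used here.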

Additional observations from a re-analysis of the deposited data

Results flagged for a closer look

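In 6 of the 33 tested collagen genes the HD lines differed from control in opposite directions. Genes were listed only where HD-homo against HD-het also passed (edgeR's quasi-likelihood test). A difference between the HD lines follows from opposite calls against the same control libraries, so the p-values below are no separate support. The log2 fold change was 8.89 for Col1a2 (adjusted p = 1.8e-12) and 8.79 for Col5a2 (adjusted p = 1.0e-11), both higher in 3 of 3 HD-homo libraries. It was -5.93 for Col11a1 (adjusted p = 2.6e-11), -2.07 for Col4a1 (adjusted p = 2.3e-08), -1.82 for Col4a2 (adjusted p = 9.8e-08) and -1.20 for Col4a5 (adjusted p = 1.8e-05), each lower in 3 of 3 HD-homo libraries. Opposite calls against control were found for 14.5% of all tested genes, which is near the share among the collagens, so the pattern is not particular to them. Of these 6, only Col1a2 and Col5a2 were lowest in HD-het cells.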

How the results depend on the processing

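The counts of collagens called higher and lower stayed within 1.5 times their value under every alternative run. Of 1659 gene values under alternatives, 1583 kept direction and side of the threshold, 53 lost the threshold, 10 gained it and 13 were counted as turned in direction. Among these, Col10a1 in HD-het against control without HD-het replicate 3 fell to 0.0 rather than turning, with no read left in either line. The 13, none of them past the threshold before, came from leaving out 1 library in turn, over which the log2 fold changes ranged, against control, from -0.0011 to 0.27 for Col3a1 in HD-homo, and in HD-het cells from 0.0 to 3.73 for Col10a1, from -0.18 to 0.29 for Col2a1 and from -0.36 to 0.080 for Col4a6. Between the HD lines they ranged from -0.076 to 0.28 for Col11a2, from -0.12 to 0.11 for Col5a3 and from -0.35 to 0.18 for Col9a3. With at least 10 counts in every library, which removes genes absent from a line, the class medians were -0.59, 1.02 and -1.94 for type IV (HD-homo and HD-het against control, HD-homo against HD-het) and 0.94 and 0.81 for the other collagens against control. With only the lines compared, the other collagens' HD-het median was 1.16. Without 1 library at a time, the type IV median ranged from 0.080 to 0.44 in HD-het cells against control, and the medians of the other collagens ranged from 1.35 to 2.06 in HD-homo and 1.17 to 1.97 in HD-het cells against control and from -0.33 to 0.18 between the HD lines, and the cause was not tested. Requiring a log2 fold change of at least 1 left, of the genes that process or bind collagen (an alternative chosen after seeing the data), 18 higher and 4 lower in HD-homo against control, 23 higher in HD-het against control, and 9 higher and 18 lower in HD-homo against HD-het cells. In HD-het against control, Pcolce2, Loxl4, Dcn, Ddr2 and Mmp9 stayed lower under this requirement. Of all tested genes, 19.1, 18.4 and 24.3% met it in these comparisons. Per kilobase, the sums were 685.6, 1741 and 1535 CPM per kb (control, HD-het, HD-homo) for fibrillar, 170.9, 430.1 and 112.6 for type IV and 223.7, 622.3 and 812.3 for other collagens. Libraries with the same replicate number did not pair in every comparison (correlations of deviations -0.00532 to 0.145). Among the control libraries, though, each HD-het and HD-homo library correlated best with that of its own number. With the replicate block, 18 collagens were higher and 10 lower in HD-homo and 21 higher and 4 lower in HD-het cells against control, and 10 higher and 18 lower between the HD lines. Calls were gained there for Col7a1 in HD-het (log2 0.40, adjusted p = 0.0017) and Col20a1 in HD-homo cells against control (log2 -0.44, adjusted p = 0.0282). Depth limits the 11 untested genes and those with under 100 reads.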
